A study of Mus musculus with 3 samples.

Results

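Polycomb proteins, SWI/SNF remodelers, the NuRD complex and histone H3 lysine 9 (H3K9) methyltransferases were examined in the 3 germ layers of the gastrulating mouse embryo through 40 genes, listed by symbol. All 40 genes had reads in each of the 3 libraries, among 17633 genes with a read in any library. The list holds 5 genes of Polycomb repressive complex 2 (PRC2), 10 of Polycomb repressive complex 1 (PRC1), 3 histone demethylases, 10 of SWI/SNF, 7 of NuRD, the remodeler *Chd7* and 4 of H3K9 methylation. RNA was sequenced from the endoderm, mesoderm and epiblast of embryos of the ICR strain at E7.5, each layer as 1 library made from the pooled RNA of many embryos, with no genetic change or treatment named. The layers had been dissected by hand after an enzyme digestion, and the epiblast taken this way comprises both the neuroectoderm and the primitive streak. With 1 library per germ layer, no difference below has a replicate check, and the 95% intervals given cover the error of counting reads only.

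Polycomb complexes keep developmental genes silent. PRC2 methylates histone H3 at lysine 27, and PRC1 binds that mark through its CBX subunits, ubiquitylates histone H2A and compacts chromatin. SWI/SNF complexes use ATP to slide or evict nucleosomes, and their paralogous subunits are exchanged between cell types, for example in the heart and the nervous system. NuRD couples a remodeling ATPase to histone deacetylases, and the H3K9 methyltransferases build repressive chromatin. The comparison asked which of these subunits differ between the germ layers, and whether paralogs of the same complex are used in different proportions.

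The libraries held between 40.8 M and 42.7 M reads counted on genes. The 3 lists of 7 germ layer markers had their highest summed RPKM (reads per kilobase of gene length, scaled to the total of counted reads) in the layer they mark. The endoderm list, which includes the visceral endoderm genes *Afp*, *Ttr* and *Amn*, was in mesoderm at 2.59% and in epiblast at 0.221% of its endoderm level. The mesoderm list was at 5.40% in endoderm and 20.4% in epiblast, and the epiblast list at 12.2% in endoderm and 13.7% in mesoderm. Of other cell types, the trophoblast list held 5 of 7 genes, without *Tpbpa* and *Prl3d1*. This list summed to an RPKM of 28.5 to 45.8, highest in endoderm. Its genes did not share this order. *Cdx2* made up 18.4 of the endoderm sum, 20.9 of the mesoderm sum and 37.1 of the epiblast sum. *Cdx2*, *Elf5* and *Ascl2* were highest in epiblast, and *Plac1* and *Esx1* in endoderm. The erythroid list (3 of 5, without *Hba-x* and *Hbb-y*) summed to 4.44 or less in each layer. The decidua list (3 of 4, without *Prl8a2*) summed to 31.3 in mesoderm and to at most 3.58 in the other layers, of which *Hand2*, which is also a gene of lateral mesoderm, made up 26.2 of the mesoderm sum.

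Most members were well expressed. The median RPKM over the 40 genes was lowest in endoderm at 26.2, with 38.4 in mesoderm and 34.6 in epiblast, while the median listed gene stood at 4.89, 4.52 and 4.22 in these layers. RPKM>5 was reached by 37 members in endoderm and by 38 in both other layers. The lowest read number of any member in a library was 103, for *Smarcd3* in endoderm. Reads covered over 90% of the gene length for 35 members in endoderm and mesoderm and 34 in epiblast, with a lowest value of 72.7%. The highest level was that of *Hdac1* in epiblast, at an RPKM of 179, followed by *Chd4* in the same layer at 174. The lowest were *Cbx7* in mesoderm at 1.37 and *Smarcd3* in endoderm at 1.42.

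**Figure D1:**
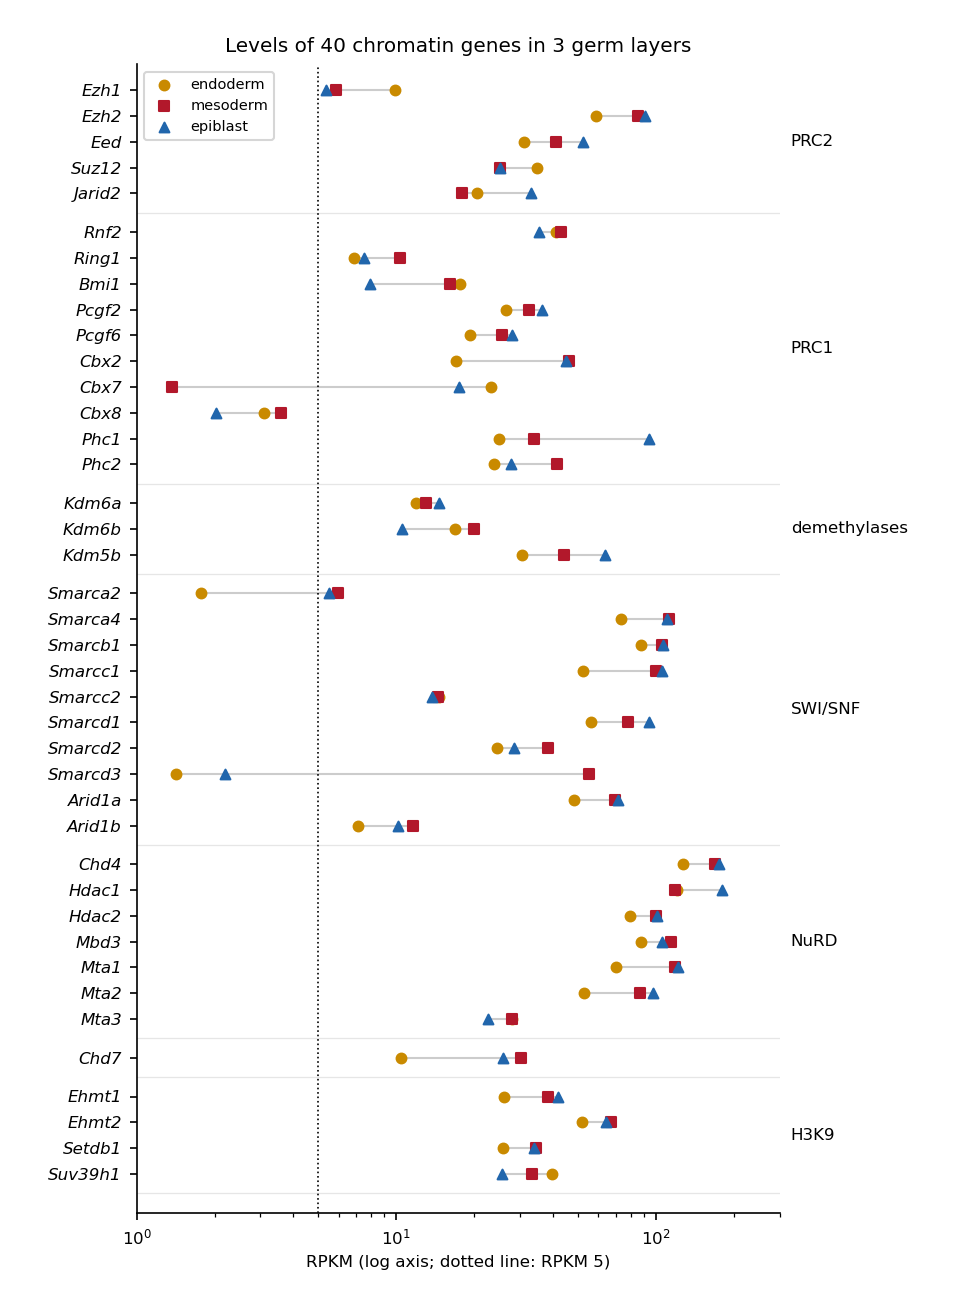
RPKM of each of the 40 genes (log axis) in endoderm (circles), mesoderm (squares) and epiblast (triangles), grouped by complex, with a dotted line at RPKM 5 and a grey line from the lowest to the highest layer. Most genes lie within 2-fold in the 3 libraries (31 of 40), while *Smarcd3*, *Cbx7*, *Phc1*, *Smarca2*, *Chd7* and *Cbx2* are spread wider. The median fold of the highest over the lowest layer was 1.59 over the members. It was 1.55 over the 9097 genes with RPKM>5 in a library and reads in all.

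Sequence before the transcription start was available from RefSeq (GRCm38.p6) for 35 of the 40 genes. In the 250 bases before the start, the members held a median of 21 CpG dinucleotides, against 6 over the 27025 genes with a window. At least 10 CpG were held by 32 of the 35 members, against 38.2% of all genes. The count in members ranged from 4 in *Smarcd2* to 40 in *Smarcc2*. The 27025 genes outnumber the 17633 with a read in any library, so they were not limited to expressed genes. The members were not compared with expressed genes alone. The sequences shown are those of *Smarcd3* and *Cbx7*, the members with the largest differences between germ layers, and of *Smarca2*, which was lowest in endoderm. Each is the longest stretch of the window with no annotated exon, 5′ to 3′ on the strand of the gene, with CpG dinucleotides in capitals. The stretches hold 38 CpG in *Smarcd3* (chr5:24602013-24602252, minus strand), 6 in *Cbx7* (chr15:79932769-79932896, minus strand) and 16 in *Smarca2* (chr19:26604910-26605049, plus strand). They differ in length, at 240, 128 and 140 bases, and the full windows of these genes hold 38, 23 and 28 CpG.
Smarcd3: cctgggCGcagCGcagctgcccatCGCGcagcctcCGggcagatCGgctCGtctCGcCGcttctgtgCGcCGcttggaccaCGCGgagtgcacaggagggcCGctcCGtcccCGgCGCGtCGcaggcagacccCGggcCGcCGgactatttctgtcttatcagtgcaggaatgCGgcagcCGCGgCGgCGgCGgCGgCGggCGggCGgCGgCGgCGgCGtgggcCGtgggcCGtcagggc
Cbx7: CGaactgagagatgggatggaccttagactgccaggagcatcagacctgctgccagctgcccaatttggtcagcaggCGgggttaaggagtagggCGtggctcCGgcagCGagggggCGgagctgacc
Smarca2: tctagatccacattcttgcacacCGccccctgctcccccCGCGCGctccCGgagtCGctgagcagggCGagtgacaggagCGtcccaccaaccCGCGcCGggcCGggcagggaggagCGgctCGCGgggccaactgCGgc
The RefSeq starts of *Smarcd3*, *Cbx7* and *Smarca2* lie inside the longer gene spans of GENCODE M21, so other starts of these genes are not shown. The CpG counts describe the letters of these windows and their relation to expression was not tested.

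Between endoderm and mesoderm, 5 of the 39 members with RPKM>5 in either layer were differentially expressed (RPKM>5 in at least 1 of the 2 libraries, Fold Change>2 and FDR<0.001), against 23.0% of the 8867 genes tested. Only *Cbx7* was higher in endoderm, as were 14.4% of the genes tested, and 4 members (*Cbx2*, *Smarca2*, *Smarcd3* and *Chd7*) were higher in mesoderm, as were 8.56%. Between endoderm and epiblast, 7 of 38 members differed, against 24.6% of 8843 genes. Only *Bmi1* was higher in endoderm, against 15.7% of the genes, and 6 members (*Cbx2*, *Phc1*, *Kdm5b*, *Smarca2*, *Smarcc1* and *Chd7*) were higher in epiblast, against 8.94%. Between mesoderm and epiblast, 4 of 39 members differed, against 10.3% of 8340 genes. *Bmi1* and *Smarcd3* were higher in mesoderm, against 5.3% of the genes, and *Cbx7* and *Phc1* in epiblast, against 5.02%. After scaling to the same upper quartile, *Bmi1* was no longer called in this last pair, which left 1 gene higher in mesoderm and 2 in epiblast. In all, 9 of the 40 genes differed in at least 1 pair, against 31.5% of 9135 genes that reached RPKM>5 in some library, and none differed in all 3 pairs. Counted in both directions, the shares of members called were thus below or near those of all genes. The exact test of Audic and Claverie behind the FDR compares 2 libraries and not the germ layers as conditions. When biological variation was assumed, as a coefficient of variation of 0.2 in the exact test of edgeR, both calls of *Cbx2*, *Chd7* and *Bmi1* were lost, as were those of *Kdm5b* and *Smarcc1* and that of *Phc1* between mesoderm and epiblast. At 0.4, *Smarcd3* in both of its pairs and *Cbx7* between endoderm and mesoderm were still called.

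Most members had a lower RPKM in endoderm than in the other layers, whether called or not. Of the members tested, 30 of 39 had a lower RPKM in endoderm than in mesoderm (76.9%, against 56.0% of all genes tested), and 29 of 38 a lower RPKM in endoderm than in epiblast (76.3%, against 54.0%). In log2 terms, the median endoderm to mesoderm ratio was -0.42 over the members and -0.10 over all genes, a difference of -0.32. For endoderm to epiblast it was -0.46 and -0.08, a difference of -0.38. Read against the median of all genes, which removes the scaling of the libraries, 29 of 39 and 29 of 38 members lay below it. Mesoderm and epiblast were close, with a median of 0.01 over the members and 0.02 over all genes, and 31 of 39 members lay within 1.5-fold, near the 81.2% of all genes. Endoderm was the lowest layer for 28 of the 40 genes (48.0% of all genes with RPKM>5) and the highest for 7 (37.1%), whereas 18 were highest in epiblast (32.6%) and 15 in mesoderm (30.3%). A list of 8 proliferation genes moved alongside: all 8 had a lower RPKM in endoderm than in mesoderm and 7 of 8 than in epiblast, with median log2 ratios of -0.45 and -0.51 and summed RPKM of 695 in endoderm, against 976 in mesoderm and 1153 in epiblast. The part of proliferation in the lower endoderm levels was not tested. In RNA of whole layers, fewer cells that express a gene and less of its RNA per cell cannot be told apart.

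**Figure D2:**
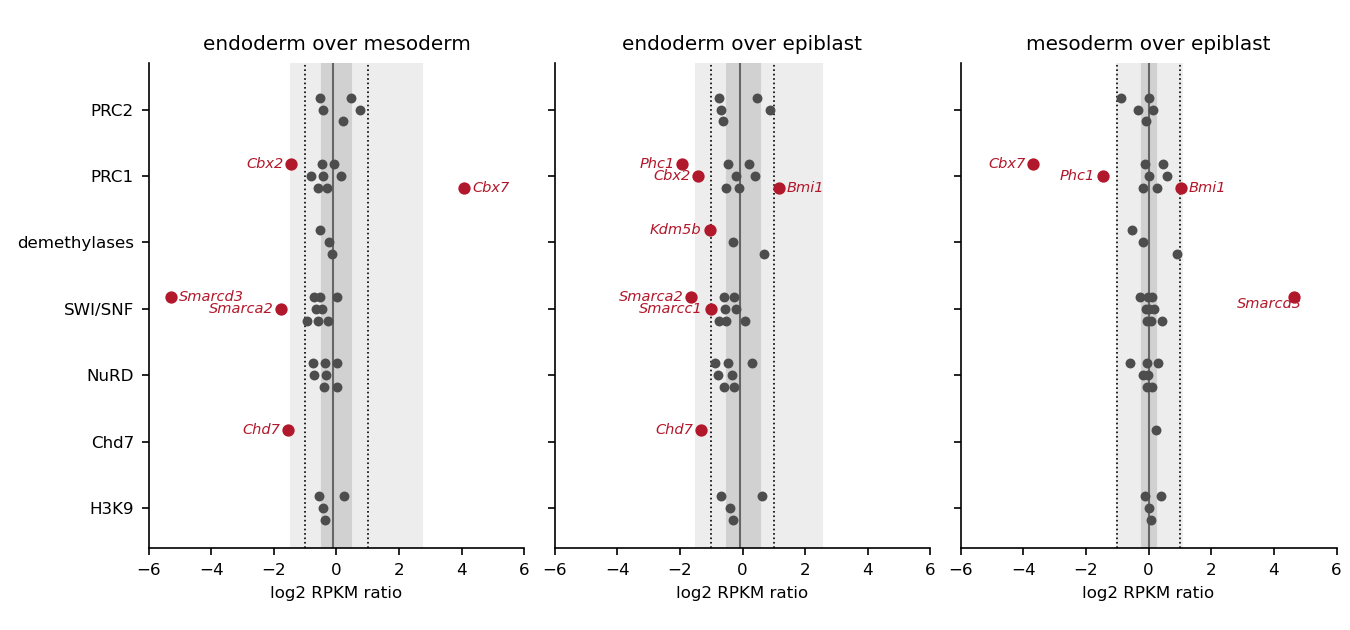
Log2 RPKM ratio of each member in the 3 pairs of germ layers, by complex, with the median (line), the range between the quartiles (dark band) and the middle 90% (light band) of all genes tested, and dotted lines at 2-fold. Members that met the criteria are in red with their names, and most of the others lie to the left of the median of all genes in the comparisons with endoderm.

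Among the SWI/SNF genes, *Smarcd3* stood apart. *Smarcd3* encodes BAF60C, the form of the BAF60 subunit used in heart and muscle. It lies on chromosome 5, 24590818 to 24624411 (GENCODE M21, GRCm38) and had 3927 reads in mesoderm, against 163 in epiblast and 103 in endoderm. The RPKM was 55.2 in mesoderm, followed by 2.19 in epiblast and 1.42 in endoderm, so that mesoderm alone was high. Mesoderm exceeded endoderm by 38.9-fold (95% interval 32.0 to 47.7) and epiblast by 25.2-fold (95% interval 21.5 to 29.6), and endoderm and epiblast, 1.54-fold apart, were not tested since both lay under RPKM 5. The endoderm and epiblast levels were 2.57% and 3.97% of that in mesoderm, and the summed mesoderm marker list was found there at 5.40% and 20.4%. Single markers lay on both sides of *Smarcd3*, from 0.451% (*Hand1*) to 18.1% (*Pdgfra*) in endoderm and from 1.89% (*Kdr*) to 88.2% (*Tbx6*) in epiblast. The part of mesoderm cells in these levels was not tested. An exon of *Smarcd3* overlaps one of *Chpf2*, whose RPKM was 1.95 to 2.92. *Chpf2* had more reads than *Smarcd3* in endoderm (453 against 103) and epiblast (329 against 163), and fewer in mesoderm (297 against 3927). The part of the overlap in the *Smarcd3* levels was not tested.

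The other paralogs of this subunit were broader. *Smarcd1* had an RPKM of 93.6 in epiblast, with 78.3 in mesoderm and 56.2 in endoderm. *Smarcd2* had 38.3 in mesoderm, compared with 28.3 in epiblast and 24.5 in endoderm. Neither met the criteria in any pair. *Smarca4* and *Smarca2* encode the alternative ATPases BRG1 and BRM. *Smarca4* was the main form, with an RPKM of 112 in mesoderm, followed by 110.1 in epiblast and 73.5 in endoderm. *Smarca2* (chromosome 19, 26605050 to 26778322) had 5.97 in mesoderm, with 5.50 in epiblast and 1.77 in endoderm, so that it was low in every layer and lowest in endoderm. The difference was 3.38-fold (95% interval 3.03 to 3.78) from mesoderm and 3.11-fold (95% interval 2.79 to 3.48) from epiblast, and both pairs met the criteria, although *Smarca2* passed RPKM>5 only through the layers in which it was higher. With RPKM>10 it was not tested.

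Of the core and large subunit genes of SWI/SNF, *Smarcb1*, *Smarcc1*, *Arid1a* and *Arid1b* were lowest in endoderm, while *Smarcc2* was flat. Only *Smarcc1* among them met the criteria in any pair. *Smarcb1*, which encodes the SNF5 subunit, had an RPKM of 106 in epiblast, compared with 105 in mesoderm and 87.6 in endoderm. The scaffold gene *Smarcc1* (chromosome 9, 110117708 to 110240178) stood at 105 in epiblast, followed by 99.8 in mesoderm and 52.2 in endoderm. Its paralog *Smarcc2* was flat at 14.6 in endoderm, with 14.5 in mesoderm and 13.8 in epiblast. *Smarcc1* was 2.01-fold (95% interval 1.97 to 2.06) lower in endoderm than in epiblast, at the border of the Fold Change criterion, and was not called after rescaling by TMM, by the median of ratios or to an equal RPKM total. Its difference from mesoderm, 1.91-fold, did not meet the criteria. *Smarcc2* differed by at most 1.06-fold, the flattest profile of the 40 genes. *Arid1a* and *Arid1b* encode the alternative large subunits that define the canonical BAF complex. *Arid1a* had an RPKM of 71.6 in epiblast, compared with 69.4 in mesoderm and 48.1 in endoderm. *Arid1b* was lower throughout, at 11.6 in mesoderm, followed by 10.2 in epiblast and 7.10 in endoderm, and neither gene was called. Over the 10 SWI/SNF genes, 9 had a lower RPKM in endoderm than in mesoderm, with a median log2 ratio of -0.63, and 8 of the 9 tested a lower one than in epiblast, with a median of -0.57. Of all genes tested, 56.0% and 54.0% were lower in endoderm in these pairs, with medians of -0.10 and -0.08.

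The largest differences among the Polycomb genes were in PRC1. *Cbx7* and *Cbx2* encode alternative readers of H3K27 methylation, and *Cbx7* is the main form in pluripotent stem cells. *Cbx7* (chromosome 15, 79915807 to 79971119) had 2797 reads in endoderm, against 2163 in epiblast and 162 in mesoderm, and an RPKM of 23.2 in endoderm, with 17.5 in epiblast and 1.37 in mesoderm. Mesoderm alone was low, by 16.9-fold (95% interval 14.4 to 19.96) from endoderm and 12.8-fold (95% interval 10.9 to 15.1) from epiblast. Its level in mesoderm was 5.91% of that in endoderm, while the summed endoderm marker list was found in mesoderm at 2.59% and the epiblast list at 13.7% of their own layers. These sums rest on few genes, since *Cer1* made up 47.4 of the endoderm list's 51.3 RPKM in mesoderm, and *Pou5f1* (120 RPKM) and *Dnmt3b* (74.3 RPKM) most of the epiblast list's 222 RPKM. Single markers stood in mesoderm at 0.0399% (*Hnf4a*) to 34.4% (*Cer1*) and at 0.656% (*Utf1*) to 36.4% (*Otx2*) of their own layers. The part of cells from other layers in these levels was not tested. The reads of *Cbx7* covered 81.3% of its length in mesoderm. An exon of *Cbx7* overlaps one of *Apobec3*, whose RPKM was 19.4 in epiblast, 6.66 in mesoderm and 3.78 in endoderm. *Apobec3* had more reads than *Cbx7* in mesoderm (669 against 162) and fewer in endoderm (387 against 2797) and epiblast (2038 against 2163). The part of the overlap in the *Cbx7* levels was not tested.

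*Cbx2* (chromosome 11, 119022962 to 119031270) was low in endoderm instead. Its RPKM was 46.1 in mesoderm, compared with 45.1 in epiblast and 17.0 in endoderm, lower in endoderm by 2.71-fold (95% interval 2.60 to 2.84) than in mesoderm and by 2.66-fold (95% interval 2.54 to 2.78) than in epiblast, whereas mesoderm and epiblast differed by 1.02-fold. *Cbx8*, the neighbour of *Cbx2* on chromosome 11, had an RPKM of only 3.60 in mesoderm, followed by 3.11 in endoderm and 2.02 in epiblast. It did not reach RPKM>5 in any library, so it was not tested.

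*Phc1* and *Phc2* encode the polyhomeotic subunits through which PRC1 forms polymers. *Phc1* (chromosome 6, 122317731 to 122340561) was expressed at an RPKM of 93.9 in epiblast, with 34.0 in mesoderm and 24.8 in endoderm. Epiblast was high, 3.78-fold (95% interval 3.65 to 3.92) above endoderm and 2.76-fold (95% interval 2.68 to 2.85) above mesoderm. *Phc2* had an RPKM of 41.6 in mesoderm, compared with 27.7 in epiblast and 23.8 in endoderm, and its largest difference was 1.75-fold. *Bmi1* and *Pcgf2* encode the alternative PCGF subunits of canonical PRC1. *Bmi1* (chromosome 2, 18677018 to 18686629) stood at an RPKM of 17.6 in endoderm, followed by 16.1 in mesoderm and 7.90 in epiblast, lowest in epiblast by 2.23-fold (95% interval 2.08 to 2.39) against endoderm and 2.04-fold (95% interval 1.90 to 2.18) against mesoderm. The last interval includes 2, and the pair of mesoderm and epiblast was not called with a pseudocount of 1. *Pcgf2* went the other way without meeting the criteria, at 36.5 in epiblast, with 32.5 in mesoderm and 26.4 in endoderm.

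*Rnf2*, which encodes the main H2A ubiquitin ligase RING1B, had an RPKM of 43.1 in mesoderm, compared with 41.0 in endoderm and 35.4 in epiblast. Its paralog *Ring1* had 10.3 in mesoderm, followed by 7.51 in epiblast and 6.88 in endoderm. The product of *Pcgf6* belongs to a variant PRC1 without a CBX subunit that reads H3K27 methylation. *Pcgf6* had an RPKM of 27.8 in epiblast, with 25.5 in mesoderm and 19.2 in endoderm. No pair of layers met the criteria for these 3 genes.

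None of the 5 PRC2 genes met the criteria in any pair. *Ezh2*, the main H3K27 methyltransferase, had an RPKM of 90.5 in epiblast, compared with 85.1 in mesoderm and 58.9 in endoderm. Its less active paralog *Ezh1* had 9.85 in endoderm, followed by 5.85 in mesoderm and 5.36 in epiblast, the reverse order. *Eed*, which encodes the subunit that reads the mark PRC2 makes, followed *Ezh2*, at 52.1 in epiblast, with 41.3 in mesoderm and 30.9 in endoderm. The scaffold gene *Suz12*, by contrast, stood at an RPKM of 34.8 in endoderm, compared with 25.2 in mesoderm and 25.04 in epiblast. *Jarid2*, which encodes an accessory subunit that guides PRC2 to chromatin, had 32.9 in epiblast, followed by 20.4 in endoderm and 17.8 in mesoderm, and epiblast was 1.85-fold (95% interval 1.78 to 1.91) above mesoderm. The highest layer thus differed between these genes, although no difference met the criteria. Mesoderm and epiblast lay within counting error for *Suz12* (1.005-fold, 95% interval 0.964 to 1.046) and *Ezh1* (1.09-fold, 95% interval 0.999 to 1.194).

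The demethylases *Kdm6a* and *Kdm6b* remove methylation of H3K27, and *Kdm5b* removes that of H3K4. *Kdm6a* had an RPKM of 14.6 in epiblast, with 12.99 in mesoderm and 11.9 in endoderm. *Kdm6b* had 19.9 in mesoderm, compared with 16.8 in endoderm and 10.5 in epiblast. *Kdm6b* was 1.89-fold (95% interval 1.81 to 1.98) higher in mesoderm than in epiblast, under the Fold Change criterion. *Kdm5b* (chromosome 1, 134560171 to 134635285) reached an RPKM of 63.4 in epiblast, followed by 44.3 in mesoderm and 30.6 in endoderm. It was called in the endoderm and epiblast pair, at 2.07-fold (95% interval 2.02 to 2.13). That call was also lost after 3 of the 4 rescalings of the libraries.

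None of the 7 NuRD genes was differentially expressed, and *Chd4*, *Hdac1* and *Mta1* were among the members with the highest levels. *Chd4*, which encodes the remodeling ATPase, had an RPKM of 174 in epiblast, with 168 in mesoderm and 127 in endoderm. The deacetylase gene *Hdac1* had 179 in epiblast, compared with 120.0 in endoderm and 118 in mesoderm, so that epiblast was the highest and the others were close. Its paralog *Hdac2* had 101 in epiblast, followed by 99.8 in mesoderm and 79.4 in endoderm. *Mbd3*, which encodes the methyl-CpG-binding domain subunit needed by pluripotent cells to differentiate, had 114 in mesoderm, with 105 in epiblast and 87.5 in endoderm. Of the MTA family of scaffold subunits, *Mta1* had 121 in epiblast, compared with 118 in mesoderm and 70.0 in endoderm. *Mta2* had 97.1 in epiblast, followed by 86.7 in mesoderm and 52.9 in endoderm, and *Mta3* had 27.9 in endoderm, with 27.9 in mesoderm and 22.6 in epiblast. *Mta1* and *Mta2* were lowest in endoderm, and *Mta3* was lowest in epiblast. *Chd7* (chromosome 4, 8690406 to 8867659), a remodeler of another CHD subfamily that is mutated in CHARGE syndrome, did differ. It had an RPKM of 30.2 in mesoderm, compared with 25.8 in epiblast and 10.4 in endoderm, and endoderm was low, by 2.90-fold (95% interval 2.80 to 3.01) from mesoderm and 2.48-fold (95% interval 2.39 to 2.57) from epiblast.

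The H3K9 methyltransferase genes showed no called difference. *Ehmt1* and *Ehmt2*, whose products act together as a heterodimer, were both lowest in endoderm. *Ehmt1* had an RPKM of 41.8 in epiblast, followed by 38.5 in mesoderm and 25.95 in endoderm. *Ehmt2* had 67.2 in mesoderm, with 64.2 in epiblast and 52.0 in endoderm. *Setdb1*, which silences retrotransposons, had 34.4 in mesoderm, compared with 33.8 in epiblast and 25.7 in endoderm, and its exons overlap those of the gene listed as *Lass2*, which was highest in endoderm at 91.5. *Suv39h1*, which marks pericentric heterochromatin, was the exception in its order, at 39.7 in endoderm, followed by 33.4 in mesoderm and 25.5 in epiblast. Its largest difference, 1.55-fold between endoderm and epiblast, did not meet the Fold Change criterion.

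**Figure D3:**
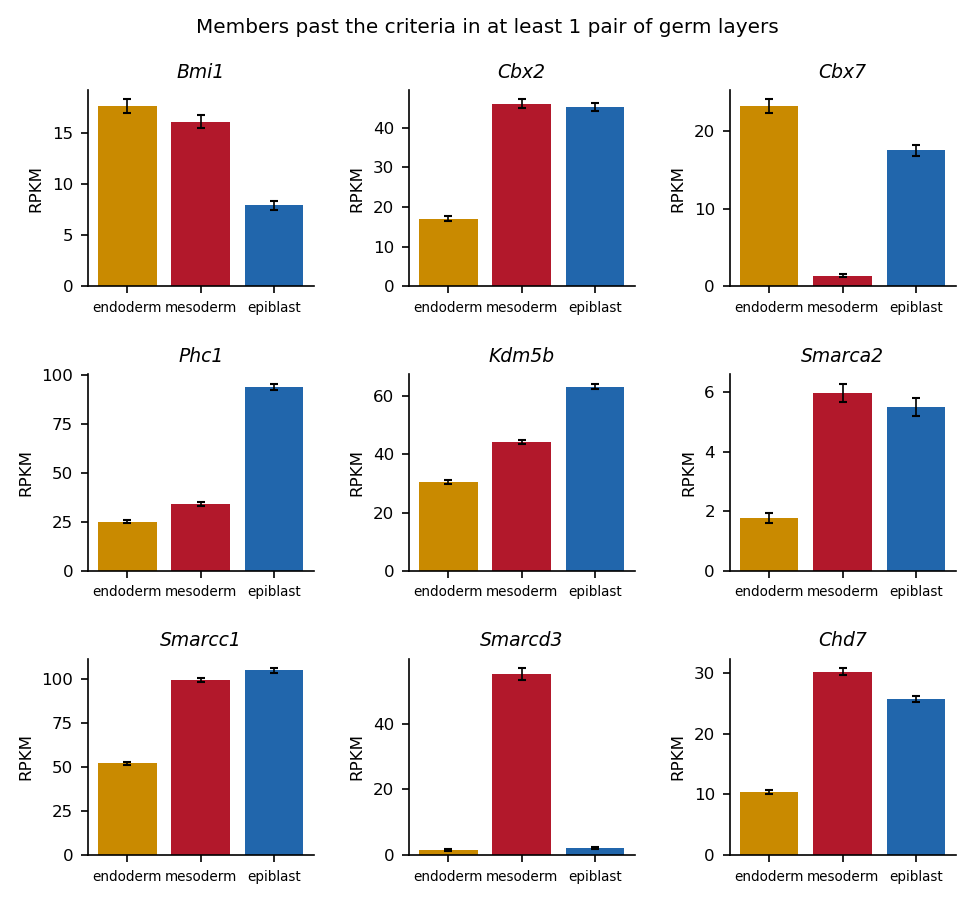
RPKM of the 9 members that met the criteria in at least 1 pair, by germ layer, each on its own axis from 0. Error bars are 95% exact Poisson intervals of the reads and hold no biological variation. *Smarcd3* is high in mesoderm alone and *Cbx7* is low there alone, *Cbx2*, *Smarca2* and *Chd7* are low in endoderm, and *Phc1* is high in epiblast.

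The ratio of 2 paralogs within 1 library does not depend on how the libraries are scaled, and its change between libraries does not depend on gene length. Of 19 pairs of paralogs, the ratio in endoderm was over 2-fold away from that in mesoderm for 7 and from that in epiblast for 9, and mesoderm and epiblast were over 2-fold apart for 7. The same paralog was higher in all 3 layers in 14 pairs, and the higher paralog changed in the other 5, which were *Cbx2*/*Cbx7*, *Cbx8*/*Cbx7*, *Phc1*/*Phc2*, *Kdm6a*/*Kdm6b* and *Smarcd2*/*Smarcd3*. Pairs that share a gene are not independent. Of the 7 pairs between endoderm and mesoderm, all but *Ezh2*/*Ezh1* hold *Cbx2*, *Cbx7*, *Smarca2* or *Smarcd3*, which were themselves called there. How often the ratio of other gene pairs moves this far was not tested.

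The share of *Cbx2* in the summed RPKM of *Cbx2* and *Cbx7* was 97.1% in mesoderm, with 72.0% in epiblast and 42.2% in endoderm. Their ratio differed by 46.0-fold (95% interval 39.0 to 54.2) between endoderm and mesoderm. The share of *Phc1* in *Phc1* and *Phc2* was 77.2% in epiblast, compared with 51.0% in endoderm and 44.95% in mesoderm, and the ratio differed by 4.15-fold (95% interval 3.96 to 4.36) between mesoderm and epiblast. For *Bmi1* in *Bmi1* and *Pcgf2* the share was 40.04% in endoderm, followed by 33.1% in mesoderm and 17.8% in epiblast, a 3.09-fold (95% interval 2.84 to 3.35) difference between endoderm and epiblast.

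In PRC2 the ratio moved although neither gene was called. Of *Ezh1* and *Ezh2* together, *Ezh1* made up 14.3% in endoderm, with 6.43% in mesoderm and 5.59% in epiblast. The ratio differed by 2.43-fold (95% interval 2.24 to 2.65) between endoderm and mesoderm and by 2.83-fold (95% interval 2.60 to 3.08) between endoderm and epiblast. Of the H3K27 demethylases *Kdm6a* and *Kdm6b*, *Kdm6a* made up 58.2% in epiblast, compared with 41.4% in endoderm and 39.5% in mesoderm. In NuRD the share of *Mta3* in *Mta2* and *Mta3* was 34.6% in endoderm, followed by 24.3% in mesoderm and 18.9% in epiblast, a 2.27-fold (95% interval 2.14 to 2.41) difference in ratio between endoderm and epiblast.

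Of *Smarcd1* and *Smarcd3* in SWI/SNF, *Smarcd3* made up 41.3% in mesoderm, with 2.46% in endoderm and 2.29% in epiblast. The change in ratio was 27.9-fold (95% interval 22.9 to 34.0) between endoderm and mesoderm, against 1.08-fold (95% interval 0.841 to 1.38) between endoderm and epiblast, an interval that includes 1. *Smarca2* was a small part of the ATPases in every layer, at 5.07% in mesoderm, compared with 4.76% in epiblast and 2.35% in endoderm. For *Arid1a* and *Arid1b*, *Mta1* and *Mta2*, and *Ehmt2* and *Ehmt1*, the ratio differed by at most 1.18-fold, 1.09-fold and 1.30-fold in the 3 pairs of layers. *Rnf2* and *Ring1*, at most 1.43-fold, and *Hdac1* and *Hdac2* were also within 2-fold.

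**Figure D4:**
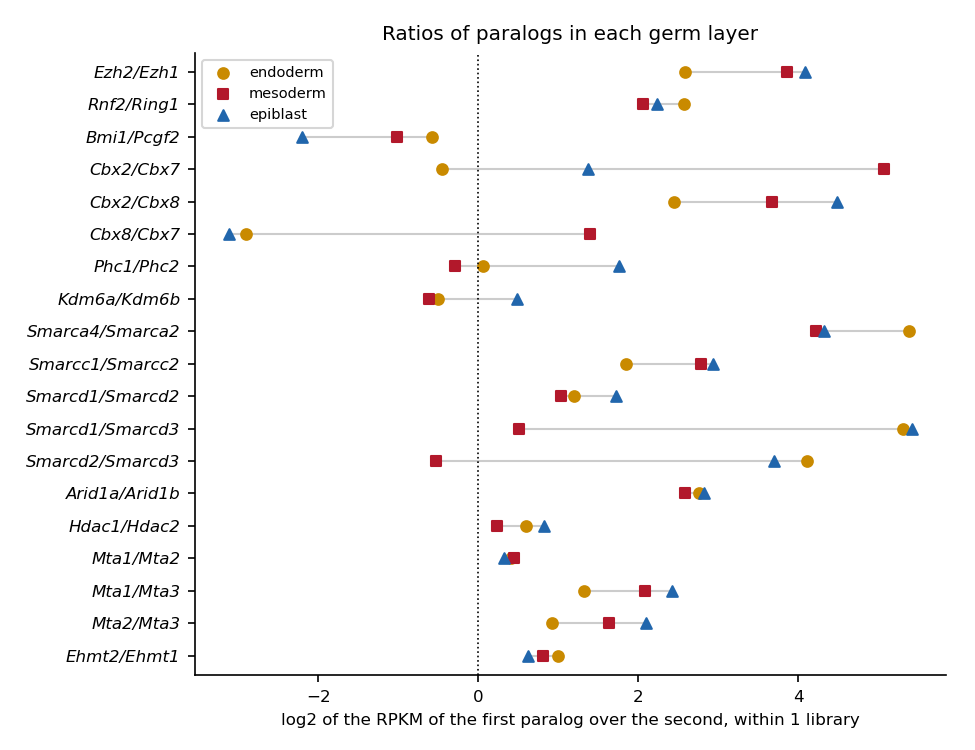
Log2 ratio of the RPKM of the first paralog to that of the second in each of 19 pairs, within the endoderm (circles), mesoderm (squares) and epiblast (triangles) library, with a dotted line at equal levels. Mesoderm lies far from both other layers in the pairs with *Cbx7* or *Smarcd3*, and epiblast lies apart for *Phc1*/*Phc2* and *Kdm6a*/*Kdm6b*.

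Whole families of paralogs were also added up, with genes beyond the 40 included. The summed RPKM of the 5 *Cbx* genes of PRC1 was 76.1 in epiblast, followed by 56.9 in mesoderm and 47.4 in endoderm. Of this sum, *Cbx7* took 49.0% in endoderm, with 23.0% in epiblast and 2.41% in mesoderm. *Cbx2* took 80.9% in mesoderm, compared with 59.3% in epiblast and 35.8% in endoderm. The 6 *Pcgf* genes summed to 116 in endoderm, followed by 115 in mesoderm and 104 in epiblast, but *Pcgf5*, which is not among the 40, took 23.2% in endoderm, with 6.84% in mesoderm and 2.58% in epiblast. The *Phc* genes summed to 123 in epiblast, compared with 76.7 in mesoderm and 50.01 in endoderm. The *Smarcd* genes summed to 172 in mesoderm, followed by 124 in epiblast and 82.1 in endoderm, and in mesoderm *Smarcd3* took 32.1%.

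**Figure D5:**
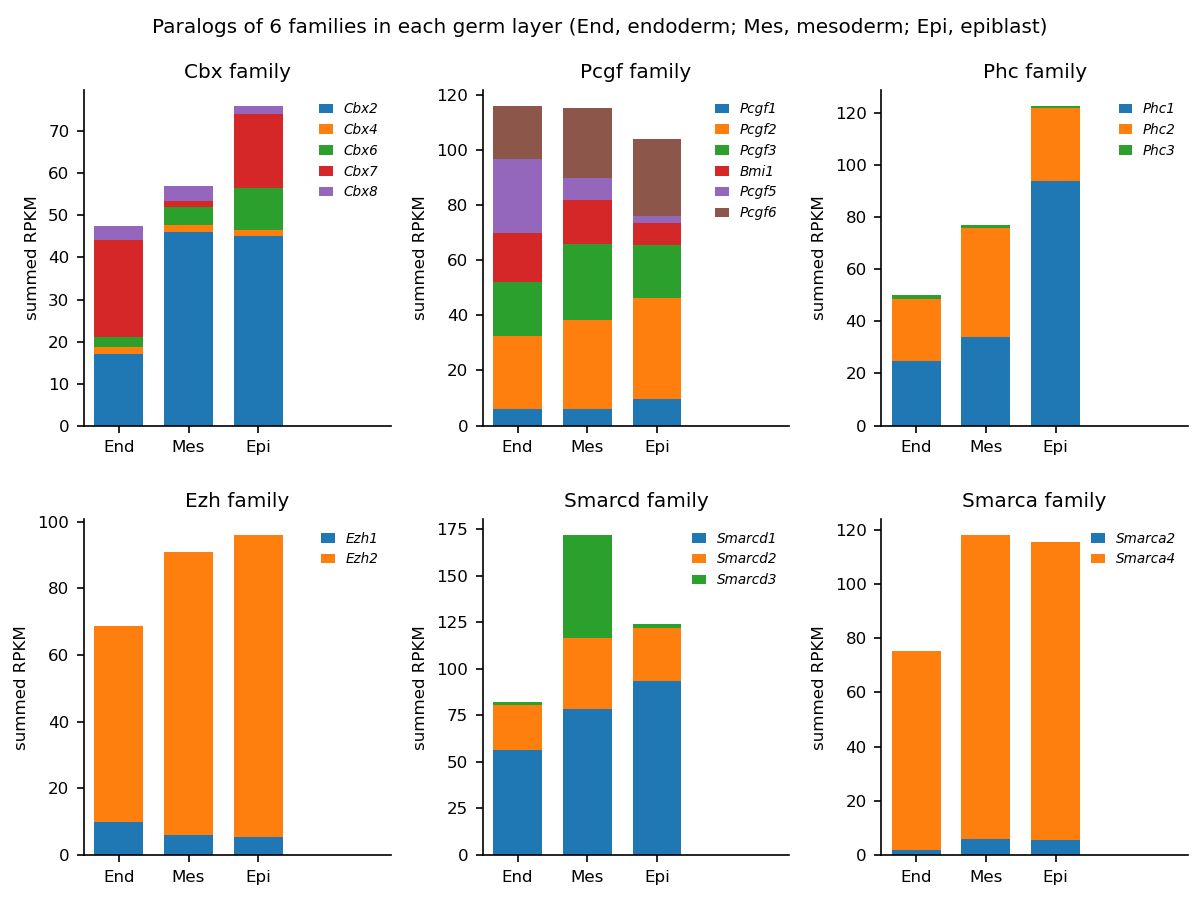
Summed RPKM of the paralogs of 6 families in endoderm, mesoderm and epiblast, stacked by gene, each family on its own axis from 0. *Cbx7* is nearly missing from the mesoderm bar, *Pcgf5* is largest in endoderm, *Phc1* in epiblast, and *Smarcd3* is a visible part of the mesoderm bar alone.

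Beyond the 40 genes, 82 further genes of the same complexes and of the trithorax group were listed, and 79 were matched in the tables. Of those tested, 4 of 64 were differentially expressed in the pair of endoderm and mesoderm, 8 of 66 in that of endoderm and epiblast and 3 of 66 in the remaining pair, below the shares of all genes given above. As for the members, most had a lower RPKM in endoderm, with 53 of 64 lower than in mesoderm and 54 of 66 lower than in epiblast. In all, 9 genes met the criteria in at least 1 pair. In PRC1, *Pcgf5*, a subunit of variant complexes, met them in all 3 pairs, its RPKM being 26.9 in endoderm, with 7.88 in mesoderm and 2.68 in epiblast. *Cbx6*, another CBX reader, had 10.01 in epiblast, compared with 4.16 in mesoderm and 2.47 in endoderm. *Kdm2b*, which brings a variant PRC1 to CpG islands, had 43.3 in epiblast, followed by 38.5 in mesoderm and 18.4 in endoderm, and *Bcorl1*, a corepressor of variant PRC1, had 10.9 in epiblast, with 9.85 in mesoderm and 5.30 in endoderm.

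The other called genes are those listed under SWI/SNF, NuRD and H3K9 methylation. *Dpf1*, a SWI/SNF subunit of neurons, had an RPKM of 5.85 in epiblast, compared with 4.70 in mesoderm and 1.07 in endoderm, and its call was that between endoderm and epiblast, which it passed through the epiblast level. Mesoderm was 4.37-fold (95% interval 3.51 to 5.47) above endoderm, a pair not tested because both lay under RPKM 5. *Mbd2*, which replaces *Mbd3* in a separate NuRD complex, had 11.2 in endoderm, followed by 6.03 in mesoderm and 3.93 in epiblast. The NuRD-associated *Cdk2ap1* had 353 in epiblast, with 310.3 in mesoderm and 112 in endoderm, so that their orders were opposite. *Trim28*, the corepressor that recruits *Setdb1*, had 569.6 in epiblast, compared with 459 in mesoderm and 237 in endoderm, and it was called between endoderm and epiblast. *Kdm4c*, an H3K9 demethylase gene, had 9.07 in endoderm, followed by 8.62 in epiblast and 4.196 in mesoderm. None of the 5 further PRC2 genes tested and none of the 9 trithorax genes tested met the criteria in any pair.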

How the data were processed

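The authors dissected the germ layers, made 1 paired-end library per layer and deposited, per gene, a count of reads with a unique position, the length of the gene, its coverage as a percent of that length and the RPKM. Per the file headers, RPKM is scaled to the total of counted reads. The aligner, annotation and build of the gene tables are not given in the sources used here, and the submitters' processing notes name TopHat, mm9 and mm10. Whether strand was used in counting is not stated, so genes with overlapping exons (*Cbx7*, *Rnf2*, *Setdb1*, *Smarcc1*, *Smarcd1* and *Smarcd3*, 6 of the 40) are uncertain, and unique mapping leaves out reads shared with near-identical copies.

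Counts and RPKM were used as deposited. Criteria were those of the paper, RPKM>5 in at least 1 of 2 libraries, Fold Change>2 and FDR<0.001, the FDR being the Audic and Claverie exact test (two-sided) after Benjamini-Hochberg adjustment over all genes with a read in either library. No dispersion can be estimated from 1 library per layer, so a quasi-likelihood fit was not possible, and edgeR's exact test was run as an alternative with an assumed biological coefficient of variation (BCV) of 0.2 or 0.4. Folds have exact binomial and RPKM exact Poisson 95% counting intervals, and intervals of paralog ratios are Poisson on the log scale. The named genes are the 40 members and the further genes called in at least 1 pair. Further genes were matched through RefSeq synonyms, and *Actl6b*, *Bicral* and *Kmt2d* had no unique match. The members and lists were chosen with earlier results of these data known. The tests were checked on simulated data. Alternatives with edgeR (4.0.16) ran in R (4.3.3), and all other steps in Python (3.11.15) with SciPy (1.17.1), numpy (2.4.6) and pandas (2.3.3), and matplotlib (3.10.9) for plots.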

Additional observations from a re-analysis of the deposited data

How the results depend on the processing

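Of the 16 calls of members (a gene in a pair of layers), 13 held under all 4 other scalings (same RPKM total, median of ratios, same upper quartile, TMM), and 3 held under all 14 alternatives, namely *Smarcd3* in both pairs with mesoderm and *Cbx7* between endoderm and mesoderm. No call changed direction. Under the other scalings the median log2 ratio of all genes, -0.10 between endoderm and mesoderm, lay between -0.16 and 0.02, and that between endoderm and epiblast, -0.08, between -0.21 and 0.04. A shift of this kind moves members and all genes alike. Called members are given for endoderm and mesoderm, endoderm and epiblast, and mesoderm and epiblast in turn, of 39, 38 and 39 tested. They numbered 14, 17 and 8 with Fold Change>1.5, and 2, 0 and 2 with Fold Change>4. Of all genes tested, 39.9%, 44.3% and 18.7% were called with Fold Change>1.5, and 10.6%, 10.2% and 4.0% with Fold Change>4. With edgeR's exact test there were 3 (*Cbx7*, *Smarca2*, *Smarcd3*), 2 (*Phc1*, *Smarca2*) and 2 (*Cbx7*, *Smarcd3*) at an assumed BCV of 0.2 and 2 (*Cbx7*, *Smarcd3*), 0 and 1 (*Smarcd3*) at 0.4. Leaving out members whose exons overlap another gene, an alternative chosen after seeing the data, left 3, 6 and 2, since *Smarcd3*, *Cbx7* and *Smarcc1* fall out by construction. With RPKM>1, RPKM>10, no RPKM filter, a pseudocount of 0.1 or 1, or no FDR criterion the counts stayed within 1.5 times, as did those of paralog pairs. The difference in medians stayed within 0.1 under each alternative tried. No paired analysis was possible because each germ layer has 1 library, and for the same reason no replicate could be left out. The fewest reads behind a member's value were 103 for *Smarcd3* in endoderm, 122 for *Cbx8* in epiblast and 162 for *Cbx7* in mesoderm.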
